A study of Rattus norvegicus with 12 samples.

Results

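The 9 genes described here cover scavenger receptors, lipid handling and a galectin, and were taken by symbol from 37209 gene symbols in a rat brain RNA sequencing series. They are the scavenger receptors Msr1, Olr1, Cd36, Scarb1 and Marco, the lysosomal glycoprotein Cd68, the lipid droplet protein Plin2, the fatty acid carrier Fabp5 and the galectin Lgals3. All 9 had a row in the count table, and 8 had enough counts to be tested; Marco did not. The rats were Sprague Dawley, the age was postnatal day 21, and bulk brain RNA gave 12 libraries in 4 groups of 3. The stroke groups were middle cerebral artery occlusion (MCAO, blockage of a main artery of the cerebral hemisphere) and pontine infarction (a stroke of the pons, part of the brainstem). The control groups were shams coded LN, set against MCAO, and shams coded PN, set against pontine infarction, paired by the first letter of their codes. According to the labels, 3 rats had each stroke, but no label ties a library to a rat, and the tissue is named only as brain. The sources used here do not give the dissected region, the time after the stroke, the sham procedure or the rats' sex. The count column of 1 MCAO library carries a number that is in no sample title, and it is called the unnumbered MCAO library.

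Scavenger receptors are membrane proteins of several unrelated families that bind oxidised or acetylated lipoproteins, dying cells and microbial surfaces. Macrophages and microglia that take up myelin and cell debris break the lipid down in lysosomes, carry fatty acids on binding proteins and store the excess as droplets of cholesterol ester and triglyceride, coated by perilipins. After brain injury such lipid-laden phagocytes, known as foam cells, are a familiar sight in the lesion.

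Upstream windows of 250 bases are shown for 4 members that differ in the strokes, because the scavenger receptor Olr1 and the lysosomal Cd68 share an AP-1 match that the droplet gene Plin2 and the fatty acid receptor Cd36 lack. They come from RefSeq on the assembly GRCr8, which is not the assembly of the counts, and are written 5′ to 3′ on the strand of the gene. The table held windows for 5 of the 9 members. Capitals mark motif matches on either strand.
Cd68, chr10:54882442-54882691, minus strand: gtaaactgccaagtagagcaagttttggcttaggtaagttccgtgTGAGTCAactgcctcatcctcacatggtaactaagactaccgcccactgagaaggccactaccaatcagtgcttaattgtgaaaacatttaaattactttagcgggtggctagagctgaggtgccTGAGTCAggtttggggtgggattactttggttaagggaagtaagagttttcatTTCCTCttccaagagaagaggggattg
Olr1, chr4:164634548-164634797, minus strand: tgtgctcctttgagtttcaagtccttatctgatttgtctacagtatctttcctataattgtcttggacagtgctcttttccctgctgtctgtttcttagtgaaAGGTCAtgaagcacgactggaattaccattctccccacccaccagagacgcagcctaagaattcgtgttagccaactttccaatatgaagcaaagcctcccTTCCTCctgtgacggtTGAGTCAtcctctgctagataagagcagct
Cd36, chr4:18246332-18246581, plus strand: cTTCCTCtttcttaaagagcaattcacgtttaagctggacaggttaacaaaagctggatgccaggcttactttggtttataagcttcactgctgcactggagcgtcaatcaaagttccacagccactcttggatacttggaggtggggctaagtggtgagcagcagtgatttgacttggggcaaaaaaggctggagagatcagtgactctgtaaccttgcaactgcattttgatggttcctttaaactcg
Plin2, chr5:106229019-106229268, minus strand: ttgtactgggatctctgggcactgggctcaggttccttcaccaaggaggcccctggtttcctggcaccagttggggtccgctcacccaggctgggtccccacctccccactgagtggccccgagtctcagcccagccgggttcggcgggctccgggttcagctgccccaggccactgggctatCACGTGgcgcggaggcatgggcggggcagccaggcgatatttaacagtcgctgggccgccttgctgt
The AP-1 letters TGANTCA lie 205 and 80 bases before the start of Cd68 and 30 bases before that of Olr1, and are found in 6.34% of 33469 rat windows of this length. The core of PU.1 and other ETS factors, GAGGAA, which reads TTCCTC where it lies on the opposite strand, is found 27 bases before the start of Cd68, 46 before that of Olr1, 249 before that of Cd36 and 104 before that of Marco, whose window is not shown, and in 23.3% of windows. The Plin2 window holds the E-box CACGTG, 67 bases before the start (5.59% of windows), and a further Plin2 start in the table has no match to any motif searched. The nuclear receptor half-site AGGTCA occurs 147 bases before the start of Olr1 (14.1% of windows), and the C/EBP letters TTGCNNAA in none of the members' windows (9.22% of all windows). Matches in these windows do not overlap each other, and a match is a string of letters, not a measured binding site.

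Libraries held 19805815 to 40400676 counts, and 17008 genes were tested. Levels below are counts normalised to library size (CPM), given for replicate 1, replicate 2 and replicate 3 or the unnumbered library, and they are not corrected for gene length, so they are compared between libraries and not between genes. Log2 changes are given ± SE, and adjusted p-values are Benjamini-Hochberg values of edgeR's quasi-likelihood test over all genes tested, two-sided, with a threshold of 0.05. As no label ties a library to an animal, p-values measure the spread between these libraries. In bulk tissue, more cells of a type and more RNA per cell cannot be told apart. Summed astrocyte markers were at 3221 to 9415 CPM in all 12 libraries, so markers of the labelled tissue were present.

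MCAO was compared with sham LN to ask how these genes differ in the brain after this stroke. Every tested member except Scarb1 rose: 7 of 8 passed the test as higher, against a background of 12.5% of all genes tested as higher and 6.07% as lower. The receptors Msr1 and Olr1 and the galectin Lgals3 went from at most 1.13 CPM in any sham LN library to at least 18.0 CPM in any MCAO library. The droplet protein Plin2 rose from a level that was already clear in shams, and Fabp5 rose least of the 7. The median log2 change of the 8 tested members was 5.77, also with Cd36 at its lower bound, against 0.00 for all genes tested.

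**Figure D1:**
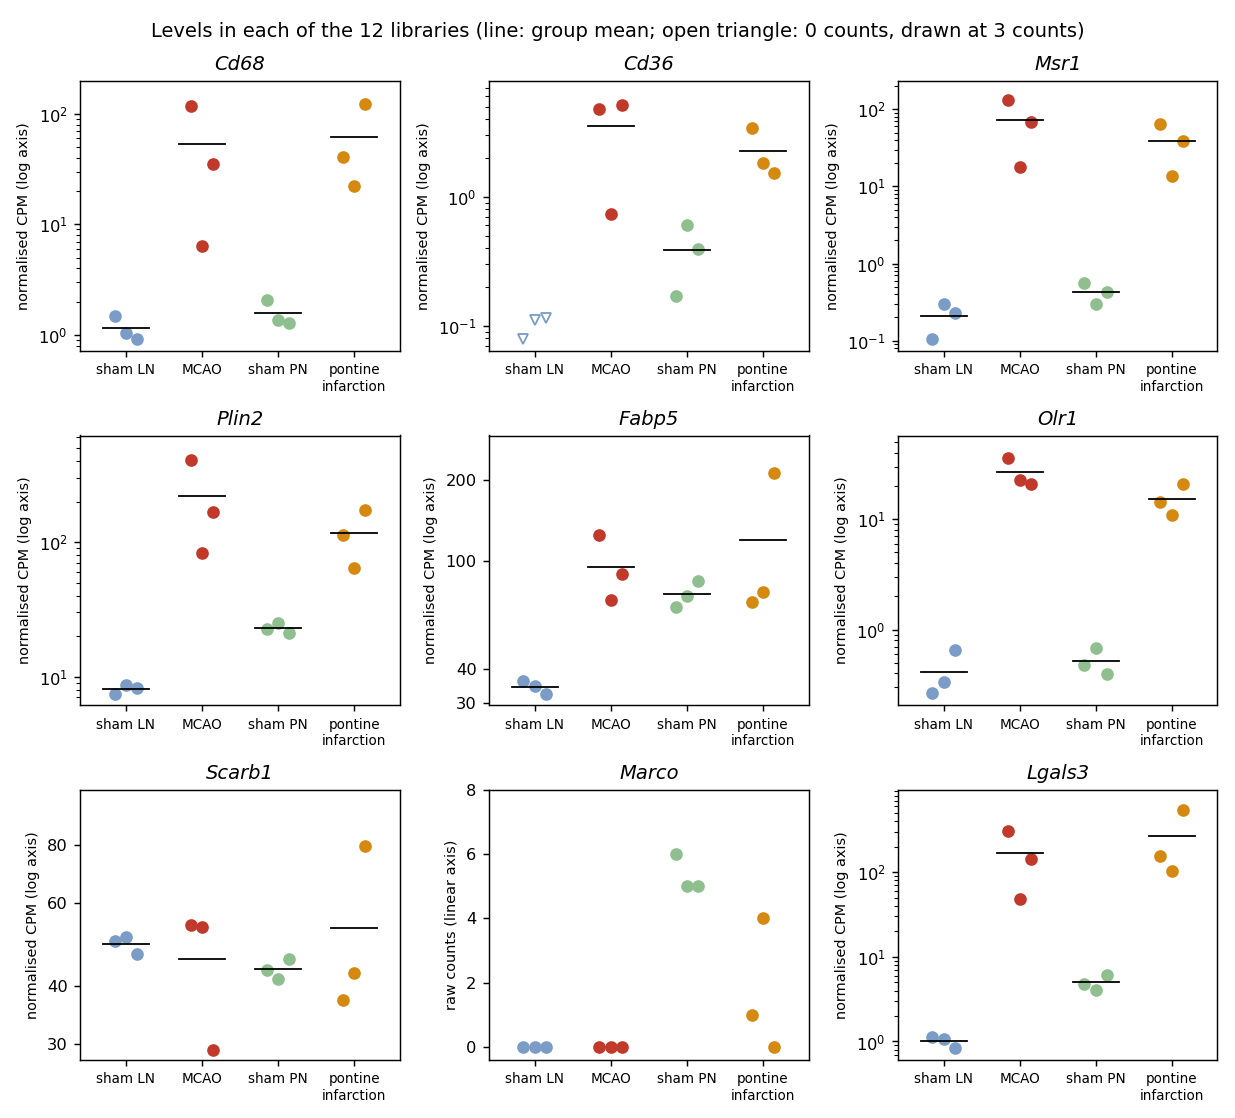
Normalised CPM of each gene in the 12 libraries (1 point a library, line at the group mean, log axes that differ between panels), with open triangles for libraries at 0 counts drawn at 3 counts, and raw counts on a linear axis for Marco. Msr1, Olr1, Cd68, Plin2 and Lgals3 stand above their own shams in every stroke library, while Scarb1 points overlap and Marco was not counted after MCAO or in sham LN.

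Msr1, the class A macrophage scavenger receptor that takes up acetylated lipoprotein and debris, stood at 131, 18.0 and 67.6 CPM after MCAO. In sham LN it was at 0.105, 0.296 and 0.229 CPM. The lowest stroke library was far above the highest sham, and the log2 change was 8.45 ± 0.93 (edgeR adjusted p = 0.000909). Single MCAO libraries lay 620, 85.6 and 321 times above the sham mean, in the same order of replicates.

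Olr1 encodes LOX-1, the lectin-like receptor for oxidised low-density lipoprotein. It was at 35.8, 22.8 and 21.0 CPM after MCAO and at 0.263, 0.334 and 0.650 CPM in sham LN. Its stroke libraries were the most alike of the called members, with the highest 1.70 times the lowest, and the groups did not overlap. The log2 change was 6.01 ± 0.43 (edgeR adjusted p = 7.1e-05).

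Cd36, a class B scavenger receptor that also moves long-chain fatty acids into cells, was at 4.81, 0.740 and 5.13 CPM after MCAO and had 0 counts in all 3 sham LN libraries. With the sham group set to a floor of 3 counts, MCAO was at least 109-fold higher (221 counts after MCAO; edgeR adjusted p = 0.00262). Replicate 2 was the low library, as it was for 6 of the 7 called members. A row for the related gene Cd36l1 held 18 counts over the MCAO libraries and 0 in sham LN, and the handling of reads shared by close copies was not stated.

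Scarb1, the class B receptor for high-density lipoprotein, was the tested member that did not pass. Its values were 53.9, 53.5 and 29.3 CPM after MCAO and 49.9, 50.8 and 46.9 CPM in sham LN. The 2 numbered libraries were just above the shams and the unnumbered library was below them. The log2 change was -0.11 ± 0.28 (95% interval -0.73 to 0.51, edgeR adjusted p = 0.810), and without the unnumbered library it was 0.13. Marco, a class A receptor of some tissue macrophages, had 0 counts in all 6 of these libraries.

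Cd68, a heavily glycosylated protein of macrophage lysosomes that binds oxidised lipoprotein, was at 118, 6.42 and 35.5 CPM after MCAO and at 1.48, 1.04 and 0.918 CPM in sham LN. The groups did not overlap, but the stroke libraries differed 18.4-fold among themselves, the widest spread of any member there. The log2 change was 5.52 ± 0.99 (edgeR adjusted p = 0.00530). With limma voom in place of edgeR the change was 4.69 and did not pass (adjusted p = 0.0682).

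Plin2, which coats lipid droplets and is the perilipin of most cells outside fat tissue, was at 405, 83.3 and 166 CPM after MCAO. Sham LN had 7.48, 8.71 and 8.26 CPM, a narrow range far below the strokes. This was a log2 change of 4.74 ± 0.55 (edgeR adjusted p = 0.00116). Fabp5, a carrier of fatty acids in the cytosol, was at 125, 71.9 and 89.9 CPM after MCAO and 36.4, 34.7 and 32.4 CPM in sham LN. All 3 stroke libraries were above all shams, and the log2 change was 1.47 ± 0.36 (edgeR adjusted p = 0.0192). That call was lost when MCAO replicate 1 (log2 change 1.15, edgeR adjusted p = 0.0883) or any of sham LN replicates 1, 2 and 3 (edgeR adjusted p = 0.0658, 0.0610 and 0.0713) was left out. It was also lost against all 6 shams (0.80, edgeR adjusted p = 0.182) and with the replicate number as a block.

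Lgals3 encodes galectin-3, a lectin for beta-galactosides that gathers on damaged lysosomes and is secreted by phagocytes. It was at 309.8, 48.7 and 144 CPM after MCAO and at 1.13, 1.08 and 0.841 CPM in sham LN. The lowest stroke library was 47.9 times the sham mean, and the log2 change was 7.35 ± 0.86 (edgeR adjusted p = 0.00121). Lgals3, Msr1 and Olr1 passed the test after MCAO under all 14 alternatives run.

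Pontine infarction was compared with sham PN to ask the same of a brainstem stroke. Here 5 of the 8 tested members rose, Msr1, Olr1, Cd68, Plin2 and Lgals3, and none fell, against a background of 3.21% of genes higher and 0.870% lower. Cd36, Fabp5 and Scarb1 did not pass. The median log2 change of the 8 was 3.69, beside -0.08 for all genes tested. Over all genes, 546 were called higher with all libraries. That number was 142, 45 and 6 without sham PN replicate 1, 2 or 3, so most calls of all genes were lost in those fits too.

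Msr1 stood at 64.7, 13.5 and 38.5 CPM after pontine infarction and at 0.559, 0.302 and 0.431 CPM in sham PN. The stroke libraries lay 150, 31.4 and 89.3 times above the sham mean, and the log2 change was 6.49 ± 0.84 (edgeR adjusted p = 0.00537). Olr1 was at 14.4, 10.8 and 20.9 CPM against 0.473, 0.680 and 0.395 CPM in sham PN. Its groups were again far apart (log2 change 4.88 ± 0.41, edgeR adjusted p = 0.000423). Olr1 passed under all 14 alternatives, while Msr1 did not pass with limma voom (6.14, adjusted p = 0.0938) or without sham PN replicate 3 (6.49, edgeR adjusted p = 0.0626).

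Cd36 was at 3.44, 1.82 and 1.53 CPM after pontine infarction and at 0.172, 0.605 and 0.395 CPM in sham PN. All stroke libraries were above all shams, but the log2 change of 2.51 ± 0.75 did not pass (edgeR adjusted p = 0.0959). It passed with DESeq2 (adjusted p = 0.0143) and when only these 6 libraries were fitted (edgeR adjusted p = 0.0420). The Cd36l1 row held 18 counts after pontine infarction and 0 in sham PN.

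Scarb1 was at 37.3, 42.7 and 79.7 CPM after pontine infarction and at 43.2, 41.4 and 45.6 CPM in sham PN. Replicate 3 alone was above the shams, and the log2 change was 0.29 ± 0.28 (95% interval -0.32 to 0.91, edgeR adjusted p = 0.574), or -0.12 without replicate 3. Marco had 1, 4 and 0 counts after pontine infarction and 6, 5 and 5 in sham PN. The ratio of stroke to sham CPM was 0.266 (95% counting interval 0.0763 to 0.761, which covers counting error only), and the gene was too low for the test; fitted without a filter its adjusted p in edgeR was 0.510.

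Cd68 was at 40.5, 22.2 and 124 CPM after pontine infarction and at 2.06, 1.36 and 1.29 CPM in sham PN, groups that did not overlap. They differed by a log2 change of 5.31 ± 0.98 (edgeR adjusted p = 0.0162). The call was kept in 9 of 14 alternatives. It was lost with limma voom (4.95, adjusted p = 0.108) and with the replicate number as a block. It was also lost without sham PN replicate 1, 2 or 3 (5.54, 5.21 and 5.18, edgeR adjusted p = 0.0604, 0.0952 and 0.109).

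Plin2 was at 112, 63.6 and 174 CPM after pontine infarction, above the 22.7, 24.9 and 21.2 CPM of sham PN in every library. Plin2 thus had a log2 change of 2.35 ± 0.49 (edgeR adjusted p = 0.0251). It passed in 8 of 14 alternatives. It did not pass with limma voom (2.23, adjusted p = 0.0537) or with the replicate number as a block. Nor did it pass without sham PN replicate 1, 2 or 3 (2.33, 2.41 and 2.29, edgeR adjusted p = 0.0853, 0.112 and 0.131) or without pontine infarction replicate 3 (1.94, edgeR adjusted p = 0.0795). Fabp5 was at 70.7, 77.4 and 212 CPM beside 67.7, 74.7 and 84.5 CPM in sham PN, so replicate 3 was high and the other two lay among the shams. Its log2 change was 0.67 ± 0.36 (95% interval -0.12 to 1.45, edgeR adjusted p = 0.306), and without replicate 3 it was -0.03.

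Lgals3 was at 154, 102.5 and 542 CPM after pontine infarction and at 4.81, 4.08 and 6.11 CPM in sham PN. Replicate 3 held the high value, and the lowest stroke library was 20.5 times the sham mean. The log2 change was 5.73 ± 0.78 (edgeR adjusted p = 0.00589), and the call was lost without sham PN replicate 3 (5.90, edgeR adjusted p = 0.0626).

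**Figure D2:**
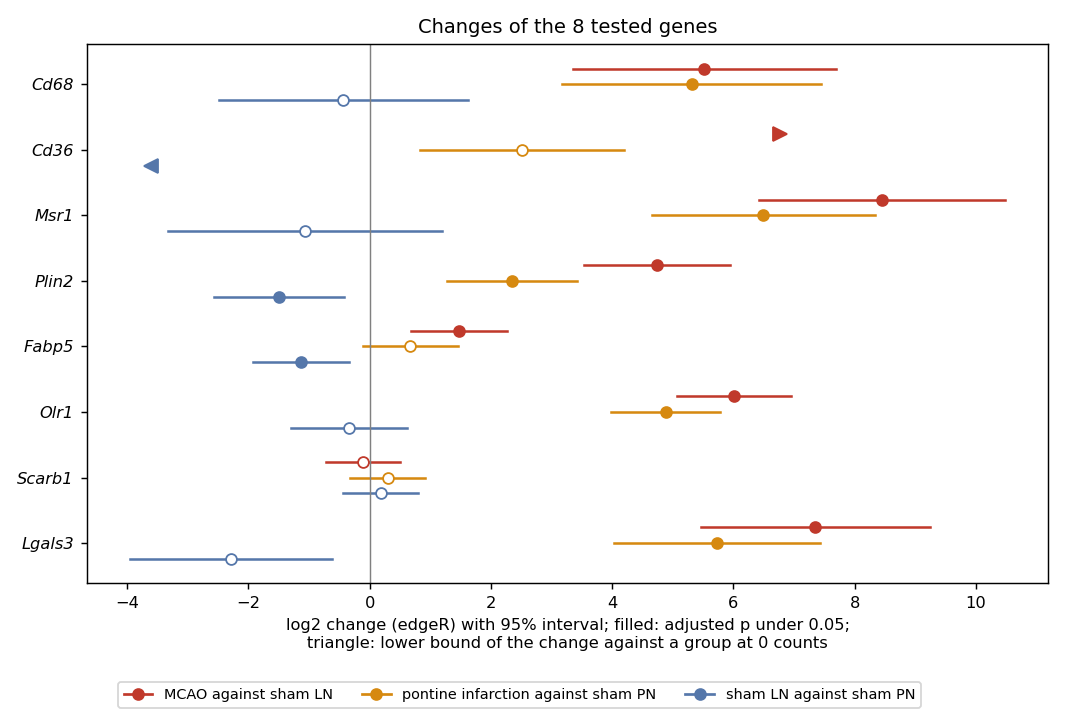
Log2 change of the 8 tested genes with its 95% interval in MCAO against sham LN, pontine infarction against sham PN and sham LN against sham PN (filled points have an edgeR adjusted p under 0.05, triangles are lower bounds of the change against a group at 0 counts). Scarb1 intervals span 0 in all 3 comparisons, and Olr1 has the narrowest intervals among the 5 genes called after both strokes.

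The difference between the responses to the strokes was tested by an interaction contrast, since a call after MCAO alone does not show that the responses differ. In the main edgeR fit no member passed, and neither did any gene of the table (0.00% higher and 0.00% lower, with 1826 of 17008 genes at an unadjusted p under 0.05). limma voom called 0 genes and DESeq2 called 154 as higher and 84 as lower. The edgeR fit without MCAO replicate 2 called 367 of 17529 genes as higher and 603 as lower. Plin2 had a difference of 2.40 ± 0.68 on the log2 scale, with the larger change over shams after MCAO (edgeR adjusted p = 0.279). The lower baseline of sham LN (-1.49 ± 0.49 against sham PN) is part of that difference. Plin2 levels in the strokes overlapped, at 83.3 to 405 CPM after MCAO and 63.6 to 174 CPM after pontine infarction. The Plin2 difference passed with DESeq2 (adjusted p = 0.0410) and without MCAO replicate 2 (2.59, edgeR adjusted p = 0.0226). Cd36, whose fitted difference rests on a sham group at 0 counts, did not pass either (edgeR adjusted p = 0.261), but did with DESeq2 (adjusted p = 0.00876) and without MCAO replicate 2 (edgeR adjusted p = 0.0124). For the others the 95% interval of the difference reached from -0.68 to 4.60 for Msr1, from -0.07 to 2.33 for Olr1, from -2.46 to 2.88 for Cd68 and from -0.53 to 3.76 for Lgals3. The interval was -0.30 to 1.91 for Fabp5 and -1.28 to 0.47 for Scarb1, and 3 libraries a group leave differences within these bounds unresolved.

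Sham LN was then compared with sham PN, the baselines that the strokes were set against. Plin2, Fabp5 and Cd36 were lower in sham LN, 3 of 8 tested members, against a background of 11.3% of all genes tested. The median log2 change of the members was -1.10, beside -0.11 for all genes. The group labels do not say how the LN and PN shams differ, so tissue, operation and handling cannot be told apart.

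The Plin2 values of sham LN given above lay below those of sham PN in every library (log2 change -1.49 ± 0.49, edgeR adjusted p = 0.0489), as did those of Fabp5 (-1.13 ± 0.36, edgeR adjusted p = 0.0448). Both calls were lost whichever of the 6 sham libraries was left out, with edgeR adjusted p-values of 0.0939 to 0.136 for Plin2 and 0.0773 to 0.132 for Fabp5. Cd36 was at least 12.1-fold higher in sham PN (31 counts against 0, edgeR adjusted p = 0.0114), and did not pass with limma voom (adjusted p = 0.0620).

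Lgals3 was also lower in every sham LN library, by 2.29 ± 0.76 on the log2 scale, and just missed the threshold (edgeR adjusted p = 0.0523). It passed in 4 of 13 alternatives, among them DESeq2 (adjusted p = 0.00253), no filter (edgeR adjusted p = 0.0462) and the shams fitted alone (edgeR adjusted p = 0.000124). With 1 sham library left out it passed in 0 of 6 fits (edgeR adjusted p up to 0.146). Marco had 0 counts in sham LN and 16 in sham PN, where it was at least 6.26-fold higher with sham LN set to 3 counts, and it passed when fitted without a filter (edgeR adjusted p = 0.0417). Msr1 (-1.07 ± 1.04), Cd68 (-0.44 ± 0.94), Olr1 (-0.34 ± 0.44) and Scarb1 (0.18 ± 0.28) did not pass, with edgeR adjusted p-values of 0.52, 0.793, 0.635 and 0.705. Fabp5 in the MCAO libraries thus stood at a level, 71.9 to 125 CPM, that overlapped the 67.7 to 84.5 CPM of sham PN, whereas Plin2 after MCAO lay above the shams of both kinds.

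The libraries of a stroke group differed from each other in the same order for most members. After MCAO, replicate 1 was the highest for 6 of the 7 called members and replicate 2 the lowest for 6 of 7, the exceptions being Cd36 and Olr1. After pontine infarction, replicate 3 was the highest for 4 of the 5 called members, Msr1 being the exception, and replicate 2 the lowest for all 5.

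Marker sums of myeloid cells differed between the same libraries, in part in the same order. The 8 pan-myeloid markers (Ptprc, Csf1r, Itgam, Tyrobp, Fcer1g, Spi1, Aif1 and Laptm5) summed to 1074, 380 and 594 CPM after MCAO, against 181 to 217 in sham LN. After pontine infarction they summed to 597, 545 and 1375 CPM, against 185 to 222 in sham PN, and none was at 0. Of these 8, 5 passed as higher after MCAO and 8 after pontine infarction, beside 12.5% and 3.21% of all genes tested. The lists below went the other way. In the same order, 8 and 3 of 8 tested neutrophil markers and 7 and 3 of 7 monocyte markers passed as higher. Of 9 tested markers of resting microglia, 1 was higher and 1 lower after MCAO, and 0 passed after pontine infarction. Neutrophil markers (13 genes, of which Ltf was at 0 after MCAO and Mpo, Elane and Retnlg were at 0 in sham LN) summed to 941, 115 and 561 CPM after MCAO and 6.77 to 7.86 in sham LN. After pontine infarction that sum was 251, 27.5 and 56.5 CPM against 4.13 to 6.39 in sham PN, where Elane and Mmp8 were at 0. The list for monocytes and recruited macrophages, with 7 of 9 genes in the table, summed to 2514, 374 and 1037 CPM after MCAO and 119 to 144 in sham LN, and to 1199.8, 347 and 1152 CPM after pontine infarction and 172 to 194 in sham PN. Ly6c of that list was at 0 in sham LN. Markers of resting microglia (10 genes) summed to 115, 244 and 167 CPM after MCAO and 244 to 279 in sham LN, and to 176, 381 and 664 CPM after pontine infarction and 254 to 266 in sham PN; Gpr34 was at 0 in all groups and Siglech in both shams. After MCAO the pan-myeloid, neutrophil and monocyte sums were highest in replicate 1 and lowest in replicate 2, and the microglial sum had the reverse order. After pontine infarction replicate 3 led the pan-myeloid and microglial sums and replicate 1 the other sums. Choroid plexus markers summed to 1121 CPM in MCAO replicate 1 and to at most 25.1 CPM in the other 11 libraries. In the fit without MCAO replicate 1, 6 members passed after MCAO: Cd68, Cd36, Msr1, Plin2, Olr1 and Lgals3. That fit called 949 of 17437 genes as higher, against 2131 of 17008 in the main fit. The part of these cell types, and of the makeup of MCAO replicate 1, in the members' values was not tested.

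**Figure D3:**
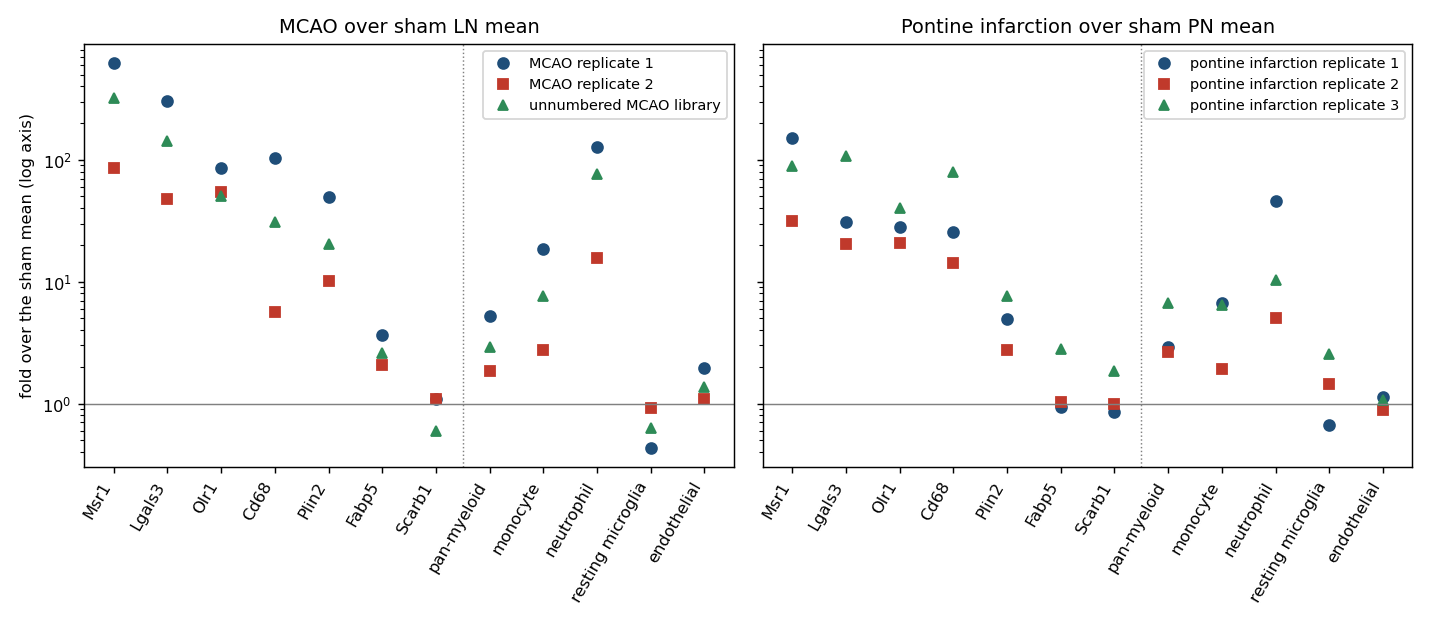
Fold of each stroke library over the mean of its shams (log axis), for 7 members and 5 summed marker lists, 1 symbol a library. Replicate 1 leads most members after MCAO and replicate 3 most after pontine infarction, as in the pan-myeloid sums; Cd36 and Marco are left out because sham LN was at 0.

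Each member but Marco was also set against the pan-myeloid sum of its own library. Lgals3 went from a median of 0.496% of that sum in sham LN to 24.3% after MCAO, and from 2.60% in sham PN to 25.8% after pontine infarction. In the same order, Cd68 went from 0.506% to 5.97% and from 0.657% to 6.78%, Msr1 from 0.127% to 11.4% and from 0.194% to 2.80%, and Olr1 from 0.154% to 3.54% and from 0.255% to 1.98%. Cd36 was at 0% in sham LN and 0.448% after MCAO, and at 0.178% in sham PN and 0.335% after pontine infarction. Its ranges in sham PN (0.0927% to 0.292%) and after pontine infarction (0.111% to 0.577%) overlapped. The share of Scarb1 was lower in both strokes, at 5.02% after MCAO against 23.5% in sham LN and at 6.24% after pontine infarction against 20.5% in sham PN. Its CPM passed the test after neither stroke, while the pan-myeloid sum was above the shams in every stroke library. Plin2 went from 4.02% to 28.0% around MCAO, but was at 12.0% in sham PN and 12.7% after pontine infarction, where the ranges overlapped. Fabp5 was at 16.9% in sham LN and 15.1% after MCAO, and at 36.5% in sham PN and 14.2% after pontine infarction. The latter ranges did not overlap, but Fabp5 CPM had not passed the test after pontine infarction. These shares are descriptions without a test, since all of these genes can be expressed by other cells too.

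Other genes of the same functions were taken from 5 lists. Of 22 tested scavenger and phagocytic receptors beyond the members, 6 rose after MCAO and none fell, beside 12.5% and 6.07% of all genes tested, with a median log2 change of 0.38 beside 0.00 for all genes. Clec7a, the beta-glucan receptor dectin-1, rose to 23.8 ± 8.28 CPM (SD, n = 3) from 0.0466 ± 0.0264 (log2 change 8.93 ± 0.88, edgeR adjusted p = 0.000679; 4 counts over the shams). Cd14, a co-receptor for bacterial lipopolysaccharide, rose by 7.54 ± 1.12 and Cxcl16, a chemokine that also binds oxidised lipoprotein, by 4.57 ± 0.77 (edgeR adjusted p = 0.00246 and 0.00396). After pontine infarction, where 3.21% of all genes tested were higher, Clec7a and Cd14 were the genes of this list that passed in edgeR, with log2 changes of 7.18 ± 0.78 and 5.44 ± 1.01 (adjusted p = 0.00406 and 0.0163). The Cd14 call was lost with limma voom (adjusted p = 0.121) and without sham PN replicate 1, 2 or 3 (edgeR adjusted p = 0.0646, 0.0952 and 0.0972).

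Of 25 tested genes of droplet coats and lipid turnover, 5 rose after MCAO and none fell (median 0.26), beside 12.5% of all genes tested as higher and 6.07% as lower. G0s2, an inhibitor of the lipase ATGL, reached 50.0 ± 22.0 CPM from 6.37 ± 0.0608 (log2 change 2.97 ± 0.29, edgeR adjusted p = 0.000679). Plin3, another droplet coat protein, rose by 2.53 ± 0.46 and Hilpda, a hypoxia-induced droplet protein that also inhibits ATGL, by 2.31 ± 0.38 (edgeR adjusted p = 0.00572 and 0.00363). After pontine infarction 0 of 25 passed in edgeR, beside 3.21% of all genes tested as higher and 0.870% as lower.

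Of 6 tested binding proteins for fatty acids and retinoids, 3 rose after MCAO (12.5% of all genes did), among them Fabp4 and Pmp2 (log2 changes 4.81 and 3.19, edgeR adjusted p = 0.0337 and 0.00958). None passed after pontine infarction in edgeR, beside 3.21% of all genes higher and 0.870% lower. Fabp4, the carrier of adipocytes and macrophages, was rare, with 85 counts after MCAO and 4 in sham LN. Its groups overlapped, and the call was lost without MCAO replicate 1 (3.10, edgeR adjusted p = 0.169), without the unnumbered library (5.09, edgeR adjusted p = 0.0589) and without sham LN replicate 1, 2 or 3 (edgeR adjusted p = 0.117, 0.0645 and 0.105). Against all 6 shams neither Fabp4 (1.42, edgeR adjusted p = 0.419) nor Pmp2, a fatty acid carrier of myelin (1.86, edgeR adjusted p = 0.0733), passed.

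Of 6 tested galectin genes and ligands, Lgals3bp, a secreted glycoprotein that binds galectin-3, was the gene that passed after each stroke, beside 12.5% of all genes higher after MCAO and 3.21% after pontine infarction. It reached 68.3 ± 50.0 CPM from 11.2 ± 2.39 after MCAO and 109.5 ± 80.6 from 22.3 ± 3.55 after pontine infarction (log2 changes 2.61 ± 0.57 and 2.29 ± 0.56, edgeR adjusted p = 0.0115 and 0.0452). After MCAO the call was lost without replicate 1 (1.77, edgeR adjusted p = 0.0523) or sham LN replicate 3 (2.47, edgeR adjusted p = 0.0547). After pontine infarction it was lost without replicate 1 or 3 (2.49 and 1.51, edgeR adjusted p = 0.0590 and 0.148) and without sham PN replicate 1, 2 or 3 (edgeR adjusted p = 0.103, 0.175 and 0.185).

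Of 19 sensors of fatty acids and oxysterols and their target genes, 2 rose and 3 fell after MCAO, beside 12.5% and 6.07% of all genes tested. After pontine infarction 0 passed in edgeR, beside 3.21% of all genes higher and 0.870% lower. Nr1h3, the liver X receptor alpha that senses oxysterols, rose by 1.69 ± 0.36 (edgeR adjusted p = 0.0105), a call lost without MCAO replicate 1 (1.30, edgeR adjusted p = 0.0546) or sham LN replicate 3 (1.55, edgeR adjusted p = 0.0508). Ppara, the receptor that drives fatty acid oxidation, fell by 1.15 ± 0.28 on the log2 scale (edgeR adjusted p = 0.0174). That call was lost without the unnumbered MCAO library (edgeR adjusted p = 0.0670), sham LN replicate 1 (edgeR adjusted p = 0.0544) or sham LN replicate 3 (edgeR adjusted p = 0.0595). No gene of the 5 lists passed for the difference between strokes in the main edgeR fit.

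**Figure D4:**
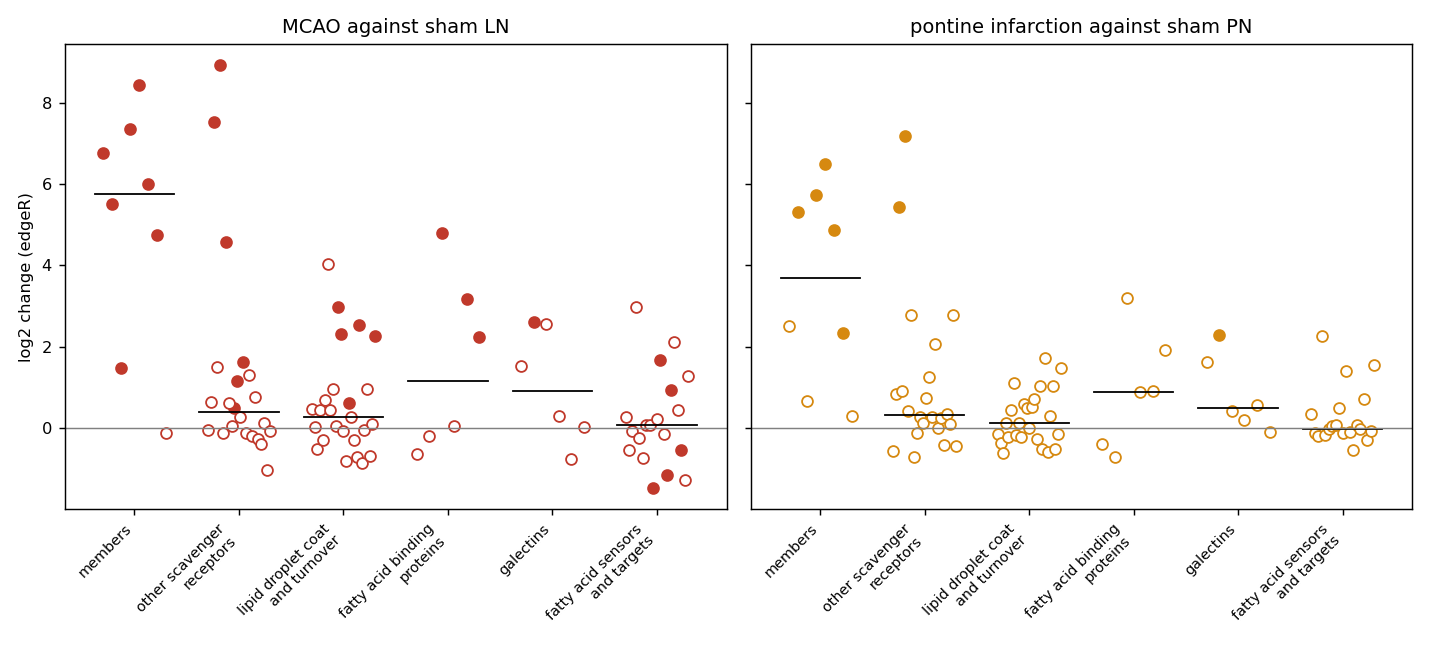
Fitted log2 change (edgeR) of the 8 tested members and of the tested genes of the 5 lists after MCAO and after pontine infarction, 1 point a gene, filled where the adjusted p is under 0.05, with a line at the list's median and Cd36 after MCAO at its lower bound. Medians of the lists lie between -0.02 and 1.15, below those of the members at 5.77 and 3.69, and most points in the lists are open.

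Between the shams these lists differed in both directions, beside 21.3% of all genes tested called in either direction. Of the 22 receptors 2 were lower in sham LN and 0 higher, of the 25 droplet genes 5 lower and 3 higher, and of the 19 sensors and targets 4 lower and 1 higher. Of the 6 binding proteins 2 were lower and 0 higher, and of the 6 galectin genes 2 lower and 1 higher. Lower in sham LN were the engulfment receptor Megf10 (-0.90 ± 0.15, edgeR adjusted p = 0.00137) and the galectin Lgals1 (-2.32 ± 0.61, edgeR adjusted p = 0.0185). Higher in sham LN were the droplet protein Hsd17b13 (3.46 ± 0.52), the monoglyceride lipase Mgll (1.44 ± 0.23), the retinoid X receptor Rxrg (3.02 ± 0.56) and Lgalsl (1.01 ± 0.22), with edgeR adjusted p-values of 0.000746, 0.00117, 0.00258 and 0.00633. The calls of Lgals1 (edgeR adjusted p = 0.0564 to 0.0678 without sham LN replicate 1, 2 or 3 or sham PN replicate 3) and of the further genes Fabp4 and Pmp2 were not held in every fit. Fabp4 (-4.33 ± 1.38, edgeR adjusted p = 0.0441) was lost whichever sham was left out, and Pmp2 (-2.02 ± 0.66, edgeR adjusted p = 0.0475) without sham LN replicates 2 or 3 or any sham PN replicate (edgeR adjusted p = 0.0716 to 0.149).

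For each tested member, the 2 genes with the most similar profile over the 12 libraries were found by the root-mean-square distance of log2 CPM after centring each gene. Plin2 was nearest to Anxa2, an annexin of membranes and vesicles (distance 0.33), and Lcp1, the actin bundler of blood cells (0.40), where the median over all genes was 1.92. Cd68 was nearest to Glipr1 (0.52) and the leukocyte integrin gene Itgal (0.54), and Msr1 to the cytokine receptor chain Csf2rb (0.58) and the inhibitory receptor Lilrb4 (0.58). Cd36 was nearest to Fgl2 (0.58) and Glipr2 (0.59). Olr1 was nearest to Atp8b4 (0.59) and Bcl2a1, an anti-apoptotic gene of blood cells (0.67), and Lgals3 to Slamf9 (0.77) and the integrin gene Itgax (0.84). The less variable Fabp5 was nearest to Arhgap22 (0.21) and Mreg (0.22) and Scarb1 to LOC690617 (0.15) and Dctpp1 (0.17), where short distances come more easily (medians over all genes 0.89 and 0.60). These distances describe the libraries, which share group differences and the makeup of the tissue.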

How the data were processed

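Brain RNA was sequenced in 12 libraries of 4 groups. Per the labels' protocols, total RNA was extracted with Trizol and checked for integrity. The submitters' processing notes list the aligner HISAT2 (no version) and the assembly Rnor_6.0, and the sources used here do not give the counter, annotation or strand setting. The deposited values are unscaled gene counts, 37209 symbols by 12 libraries. The members and gene lists were chosen with earlier results of these data known.

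The tools were edgeR 4.0.16, DESeq2 1.42.0 and limma 3.58.1 under R 4.3.3. edgeR's filterByExpr, at a minimum count of 10 and a minimum total of 15, kept 17008 genes, and rows not tested held 0.0453% of counts. All 12 libraries entered 1 quasi-likelihood fit (TMM, 8 residual degrees of freedom), with Benjamini-Hochberg adjustment. SE was taken as |log2 change| divided by √F. Scripts were tested on simulated data. No 2 libraries held the same values. Named genes were all members, up to 3 called genes a list with the largest change after MCAO and up to 2 in other comparisons, and the 2 nearest profiles of each member; some list genes that the rule names are not reported here. Alternatives were other size factors, filters, DESeq2, limma voom, fits on compared libraries, the replicate number as a block, all 6 shams as control, and leaving out each library. Intervals of log2 changes rest on the spread between libraries; those of count ratios, and floors, cover counting error only.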

Additional observations from a re-analysis of the deposited data

How the results depend on the processing

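After MCAO the count of called members was 6 or 7 in the alternatives other than the replicate block, which gave 3 (Msr1, Olr1 and Lgals3), and 6 to 7 when each library was left out. Over all genes the block called 116 as higher after MCAO, against 2131 in the main fit. After pontine infarction the count of called members was 2 with limma voom (Olr1 and Lgals3) and 3 with the replicate block (Msr1, Olr1 and Lgals3), against 5. It was 1 to 5 with a library left out. The 1 remaining call without sham PN replicate 3 was Olr1. Over all genes 546 were called higher there in the main fit, 198 with limma voom and 86 with the block. With a library left out that number was 6 (without sham PN replicate 3) to 773. For the difference between strokes the count of called members was 2 with DESeq2 (Cd36 and Plin2) and 0 to 2 with a library left out. Between the shams 3 members were called, against 1 with DESeq2 size factors (Cd36), 1 with limma voom (Fabp5), 1 whichever library was left out (Cd36), and 4 with DESeq2.

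Changes of sign occurred in values that had not passed the test. Scarb1 after MCAO was at 0.0932 with the replicate block and between -0.338 and 0.127 with a library left out, and after pontine infarction between -0.118 and 0.492. Fabp5 after pontine infarction was between -0.0311 and 0.933. For the difference, Cd68 was at -0.25 with limma voom, -0.26 with the replicate block and -1.32 to 1.20 with a library left out, and Scarb1 -0.732 to 0.00623.

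Replicate numbers pair no samples by the labels. Deviations of same-numbered libraries correlated weakly across genes (0.05, 0.15 and 0.15 for pontine infarction and sham PN, 0.10 and 0.04 for MCAO and sham LN, 0.15, 0.08 and 0.04 between the shams). Still, each numbered stroke library, and each sham LN library among the sham PN libraries, correlated best with its own number. Whether the numbers mark a shared batch or pairing was not tested. The block leaves out the unnumbered MCAO library, so it also has fewer samples. Leaving out that library without a block called 1268 genes as higher after MCAO, against 116 with the block. With 3 libraries a group, the Fabp5 call after MCAO was kept in 2 of the 6 fits that left out a library of that comparison. The fit on the compared libraries could not be run for the difference, which uses all 12.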
